A study of Mus musculus with 28 samples.

Results

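The proteasome subunit genes are the genes for the parts of the large protease complex that degrades ubiquitin-tagged proteins. They were taken as every row of the deposited expression table whose symbol starts with Psma, Psmb, Psmc, Psmd or Psme followed by a number, without the immune subunits Psmb8 and Psmb9, and with a mean counts-per-million value (CPM) of at least 1 over the 28 libraries. Of 20891 genes in the table, 43 fit the symbol pattern and 40 were kept. Psma8, a testis-type alpha subunit, stayed out at 0.245 CPM with 25 counts in all libraries, and Psmb11, the thymus-specific beta subunit, was the member nearest the limit on the other side at 1.99 CPM. The 40 members are 7 alpha ring genes, 9 beta ring genes, 6 ATPase genes, 11 genes of non-ATPase base and lid subunits, 3 assembly factors that carry Psmd symbols, and 4 activator genes. All 40 passed the filter on low counts that left 10985 genes for testing.

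The core particle of the proteasome is a barrel of stacked alpha and beta rings. The beta rings hold the proteolytic sites (Psmb5, Psmb6 and Psmb7, which Psmb8 to Psmb10 can replace in immune cells), and the alpha rings close the entry. A regulatory particle caps the barrel: its ATPases (Psmc1 to Psmc6) unfold substrates and push them in, its non-ATPase subunits bind ubiquitin (Psmd4) or cut it off (Psmd14), and alternative caps made of Psme1 and Psme2, of Psme3 or of Psme4 open the same barrel without ATP. In activated T cells the proteasome supplies peptides for MHC class I and sets the half-life of many regulators. It also degrades ornithine decarboxylase, which antizyme brings to it without ubiquitin.

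RNA was sequenced from CD4+ T cells of the spleens of C57BL/6 mice, in 28 full-length libraries with paired reads of 75 bases. Naive CD4+ cells were sorted (CD44-, CD62L+, CD25-), activated on plates that had been coated with antibodies to CD3 and CD28 (1 µg/ml of each), and harvested after 68 h, when live cells were sorted. The Th17n cultures, which give non-pathogenic Th17 cells, received IL-6 at 25 ng/ml and TGFb1 at 2 ng/ml, and the iTreg cultures, which give induced regulatory T cells, received TGFb1 at 2 ng/ml. Each culture was kept either without drug (ctrl) or with 100 µM DFMO, difluoromethylornithine, an inhibitor of ornithine decarboxylase and so of the first step of polyamine synthesis. WT denotes the control mice (4 animals) and KO the JMJD3 fl/fl CD4cre mice (3 animals), in which the histone H3K27 demethylase JMJD3, encoded by Kdm6b, is deleted by a Cre active in T cells from the CD4+ CD8+ stage in the thymus. The labels end in a genotype and a number, and that number was read as the animal. Read so, every animal gave 4 libraries, 1 for each culture and treatment. There were 8 groups of 4 (WT) or 3 (KO) libraries. Ages and sexes are not given in the sources used here. The study asked how DFMO acts on Th17 cells and how far JMJD3 takes part in it.

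The libraries held 2226914 to 4759290 estimated counts. Kdm6b was at 33.5, 43.1, 51.1 and 60.6 CPM in the 4 Th17n ctrl WT libraries and at 30.3, 28.6 and 43.3 CPM in the 3 Th17n ctrl KO libraries, at 36 to 64 CPM in Th17n DFMO WT and 24.3 to 33 CPM in Th17n DFMO KO, at 38 to 48.8 CPM in iTreg ctrl WT and 29.1 to 33.3 CPM in iTreg ctrl KO, and at 41.9 to 59.2 CPM in iTreg DFMO WT and 19.9 to 27.7 CPM in iTreg DFMO KO. It passed the edgeR test in the DFMO cultures (log2 fold change -0.95 in Th17n, adjusted p = 0.0076; -1.01 in iTreg, adjusted p = 0.00251) and not in the ctrl cultures (-0.44, adjusted p = 0.285; -0.48, adjusted p = 0.188). Gene totals cannot show which exons the remaining reads came from. The summed CPM of 4 matched CD4 T cell markers was 878 to 1687. The Th17 cytokine gene Il17a was at 26.6 to 251 CPM in Th17n libraries and at most 0.988 CPM in iTreg libraries, and the regulatory factor gene Foxp3 at 3.78 to 40.8 CPM and 189.7 to 382 CPM. The other regulatory marker examined, Il2ra, ran the opposite way without drug. It was at 1482 to 1794 CPM in Th17n ctrl WT and 797 to 1003 CPM in iTreg ctrl WT. In ctrl KO the ranges were 1513 to 1632 and 902 to 1004 CPM. With DFMO its ranges in Th17n and iTreg overlapped, 1011 to 1264 and 852 to 1055 CPM in WT, and 1125 to 1255 and 1180.4 to 1289 CPM in KO. B cell markers summed to at most 21.1 CPM, CD8 markers to 26.7, natural killer markers to 8.28, dendritic markers to 4.9, myeloid markers to 3.43 and erythroid markers to 2.4 CPM. These libraries are bulk RNA, in which fewer cells of a type and less RNA per cell cannot be told apart.

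Per transcript length, as transcripts-per-million values (TPM), the core genes were the most abundant group. In the 4 Th17n ctrl WT libraries the median alpha ring gene had 209 ± 15.4 TPM (mean of the library medians ± SD), the median beta ring gene without Psmb11 293 ± 6.02 TPM, the median ATPase gene 101 ± 7 TPM and the median base and lid gene 104 ± 5.96 TPM. The activators spanned a wide range of levels: Psme2 stood at 333 ± 45.9 TPM, Psme1 at 281 ± 54.6 TPM, Psme3 at 9.14 ± 1.2 TPM and Psme4 at 3.87 ± 0.528 TPM. The 40 genes summed to 6746 ± 318 TPM in that group. Counts of many of these genes are not whole numbers, since reads shared with other transcripts were divided: none of the 28 values of Psma2, Psma4, Psma7, Psmb7, Psmc2, Psmd5 or Psmd9 was whole within 0.001, against all values of Psmb10, Psmb4, Psmd4, Psmd6, Psme3 and Psme4. Levels of the former may include or lose reads of near-identical copies.

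DFMO changed most members, and mostly upwards. In Th17n WT, 28 of the 40 members rose, 4 fell and 8 did not pass the test (edgeR, adjusted p under 0.05, used for every call), where 23.4% of all tested genes rose and 28.4% fell. In Th17n KO, 28 members rose and 4 fell (21.1% and 24.6% of all genes). In iTreg WT, 25 rose and 3 fell (23.1% and 24.3%), and in iTreg KO 21 rose and 1 fell (19% and 19.1%). The median member log2 fold change was 0.33 in Th17n WT, 0.39 in Th17n KO, 0.27 in iTreg WT and 0.32 in iTreg KO, beside -0.07, -0.06, -0.05 and -0.03 over all genes tested. Groups did not overlap in CPM for 29, 34, 22 and 28 of the 40 members in the same order, beside 47.1%, 56%, 36.5% and 48.3% of all genes. The iTreg WT count depends on scaling: on log2(TPM + 1), 15 members rose and 7 fell, beside 12% and 29.9% of all genes, and the median of all genes there moved from -0.05 to -0.19. Relative to that median, the members' median was 0.32 higher on counts and 0.24 higher on TPM. Summed CD4 T cell markers moved with DFMO as well, from 1295 to 1449 CPM in Th17n ctrl WT to 878 to 966 CPM in Th17n DFMO WT, and their part in the result was not tested.

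**Figure D1:**
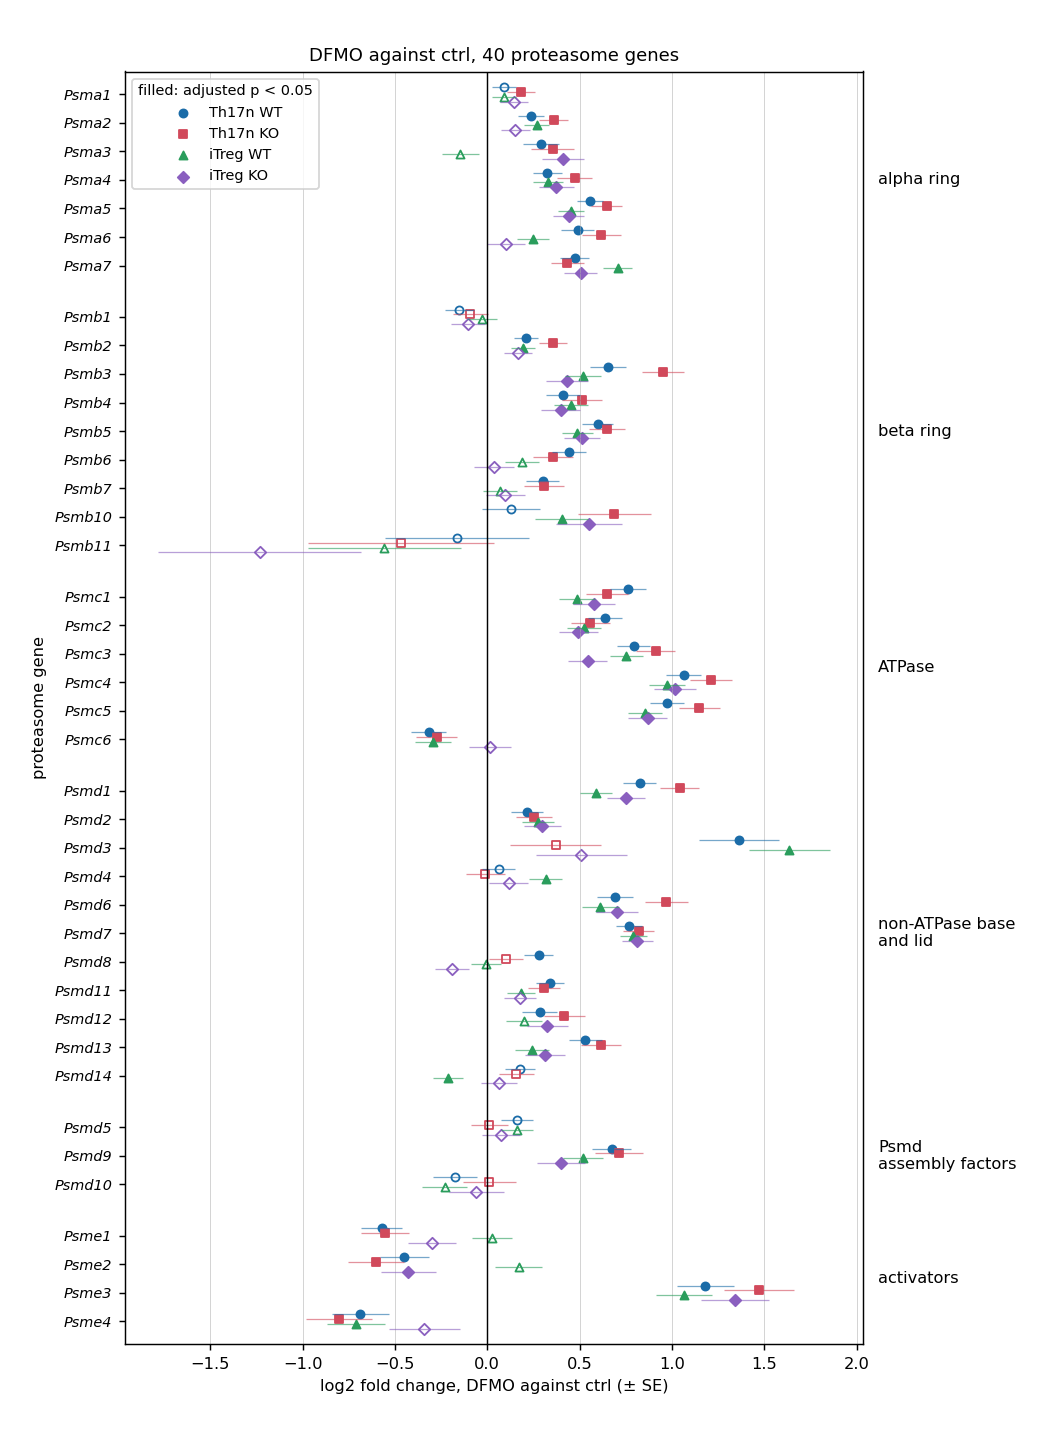
Log2 fold change of DFMO against ctrl (x axis, ± SE) for the 40 proteasome genes (y axis, grouped by role) in Th17n WT, Th17n KO, iTreg WT and iTreg KO; filled symbols passed the edgeR test. Most members lie right of 0, the ATPase genes other than Psmc6 farthest as a group, while Psmc6, Psme1, Psme2 and Psme4 lie left of 0 in Th17n cultures.

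The ATPase genes rose furthest as a role. Of the 6, Psmc1 to Psmc5 rose in each of the 4 DFMO comparisons, and the median of the 6 was 0.78 in Th17n WT, 0.78 in Th17n KO, 0.64 in iTreg WT and 0.56 in iTreg KO (log2). Psmc4 was at 144, 130.2, 139 and 130.5 CPM in Th17n ctrl WT and at 297, 323, 255 and 262 CPM in Th17n DFMO WT. Every treated library lay above every ctrl library, and the fold was 2.09 (log2 1.06 ± 0.097 SE, edgeR adjusted p = 3e-10, higher in 4 of 4 animals). In Th17n KO the level went from 127, 141 and 115 to 303, 289.9 and 292 CPM, 2.32-fold higher. Psmc4 was 1.97-fold higher in iTreg WT and 2.02-fold higher in iTreg KO, so the fold was close to 2 in all 4. Psmc5 was at 122 to 141 CPM in Th17n ctrl WT and 234 to 276 CPM in Th17n DFMO WT, 1.96-fold higher (log2 0.97 ± 0.092 SE, edgeR adjusted p = 6e-10), and it was 2.22-, 1.81- and 1.82-fold higher in Th17n KO, iTreg WT and iTreg KO.

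Psmc6, the remaining ATPase of the ring, went the other way. It was at 224, 229, 267 and 257 CPM in Th17n ctrl WT and at 209.6, 169, 196 and 211 CPM in Th17n DFMO WT. The groups did not overlap, although the highest treated library lay close to the lowest ctrl library (log2 -0.32 ± 0.095 SE, edgeR adjusted p = 0.00615, lower in 4 of 4 animals). Psmc6 also fell in Th17n KO (-0.27 ± 0.111 SE, edgeR adjusted p = 0.045) and iTreg WT (-0.29 ± 0.097 SE, edgeR adjusted p = 0.0137), and in iTreg KO its log2 difference was 0.01 (edgeR adjusted p = 0.944). The Th17n WT call was lost without Th17n DFMO WT replicate 2 (-0.19), the Th17n KO call without Th17n ctrl KO replicate 2 (-0.25) or 3 (-0.13) or without any 1 of the 3 Th17n DFMO KO libraries (-0.16, -0.23 and -0.26), and the iTreg WT call held without each library in turn but not on TMM-scaled TPM (-0.24). The Th17n WT call was also lost on both TPM scales (-0.23 and -0.24), and the Th17n KO call without the filter on low counts (-0.19), with only the groups compared (-0.23) and on log2(TPM + 1) (-0.32). As a ratio of TPM within a library, Psmc6 was 195% ± 14.5 of Psmc4 in Th17n ctrl WT and 79.8% ± 17.1 in Th17n DFMO WT (SD, n = 4). The ratio went from 207% ± 20.2 to 69.2% ± 6.13 in Th17n KO (n = 3), from 134% ± 10.6 to 60.3% ± 12.9 in iTreg WT (n = 4) and from 134% ± 31.5 to 63.5% ± 3.43 in iTreg KO (n = 3). Psmc6 thus lay above Psmc4 in each ctrl library and below it in each DFMO library, from a lowest ctrl value of 103% to a highest DFMO value of 97.5%.

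**Figure D2:**
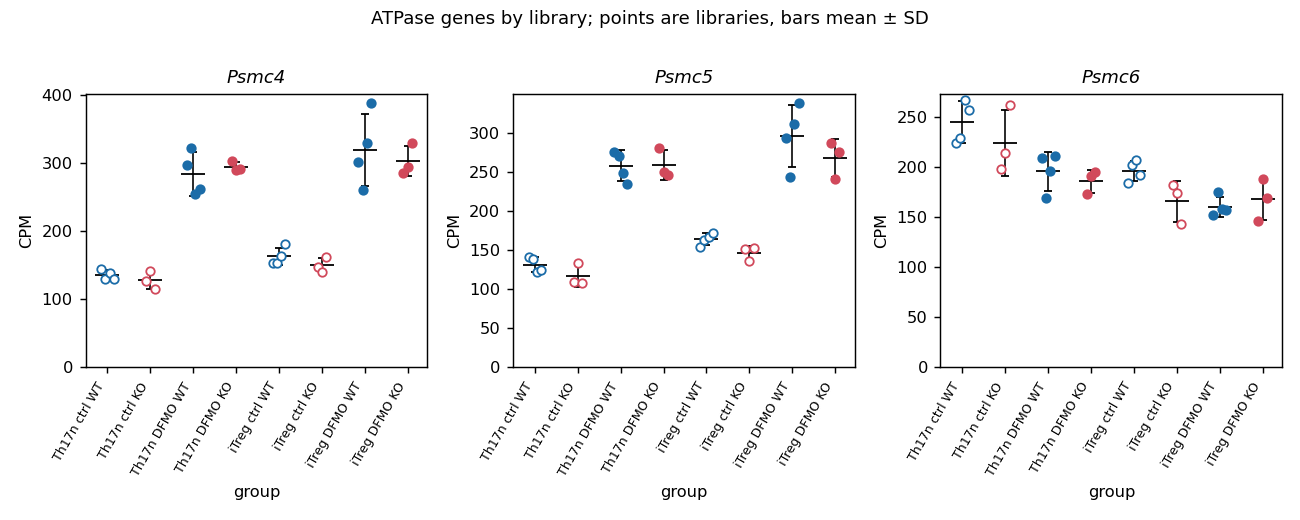
CPM (y axis, from 0) of the ATPase genes Psmc4, Psmc5 and Psmc6 in each library of the 8 groups (x axis); open points are ctrl and filled points DFMO, blue WT and red KO, and bars are mean ± SD. Psmc4 and Psmc5 are higher in every DFMO group than in its ctrl group with no overlap, while Psmc6 lies lower with DFMO in Th17n WT, Th17n KO and iTreg WT.

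Base and lid genes rose in 9 of 11 in Th17n WT, 7 in Th17n KO, 8 in iTreg WT and 6 in iTreg KO, with medians of 0.34, 0.37, 0.27 and 0.31 (log2), and 1 fell, in iTreg WT. Psmd1, a large scaffold of the base, was at 177, 155, 168 and 161 CPM in Th17n ctrl WT and 315, 279, 294 and 282 CPM in Th17n DFMO WT. All treated libraries were higher (1.77-fold, log2 0.83 ± 0.089 SE, edgeR adjusted p = 6.45e-09), and the fold was 2.06 in Th17n KO, 1.5 in iTreg WT and 1.68 in iTreg KO. Psmd7, the inactive partner of the lid deubiquitinase, was among the most even responders: 147 to 166 CPM became 255 to 276 CPM in Th17n WT (1.7-fold, log2 0.77 ± 0.071 SE, edgeR adjusted p = 4.09e-10), and the other 3 folds were 1.76, 1.73 and 1.76. Psmd14, the deubiquitinase itself, had 178 to 215 CPM in Th17n ctrl WT and 189 to 246 CPM in Th17n DFMO WT, groups that overlap (log2 0.18, edgeR adjusted p = 0.0721). It passed there without Th17n ctrl WT replicate 1 (0.25) or 4 (0.21) or Th17n DFMO WT replicate 2 (0.31), in DESeq2 (0.19) and with only the groups compared (0.23), and in Th17n KO (0.16) without Th17n ctrl KO replicate 2 (0.28) or Th17n DFMO KO replicate 1 (0.27). In iTreg WT Psmd14 fell, from 236 to 248 CPM to 195 to 229 CPM (-0.21 ± 0.082 SE, edgeR adjusted p = 0.0325), a call lost without iTreg ctrl WT replicate 3 (-0.19) or without iTreg DFMO WT replicate 1 (-0.18), 3 (-0.21) or 4 (-0.21). Psmd4, the ubiquitin receptor, rose in iTreg WT (0.32 ± 0.09 SE, edgeR adjusted p = 0.00469, but 0.10 and not called on log2(TPM + 1)) and had 0.06, -0.01 and 0.12 in Th17n WT, Th17n KO and iTreg KO. Psmd8, a lid subunit, rose in Th17n WT (0.28 ± 0.079 SE, edgeR adjusted p = 0.00401), with 0.10, -0.01 and -0.19 in Th17n KO, iTreg WT and iTreg KO.

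Of the 16 core genes, 12 rose with DFMO in Th17n WT, 14 in Th17n KO, 10 in iTreg WT and 8 in iTreg KO. In Th17n WT 6 of 7 alpha ring genes and 6 of 9 beta ring genes rose, with medians of 0.33 and 0.30 (log2). The alpha ring had 7, 5 and 4 of 7 higher in Th17n KO, iTreg WT and iTreg KO, and the beta ring 7, 5 and 4 of 9. The entry ring gene Psma5 was at 218, 224, 226 and 229 CPM in Th17n ctrl WT and 332, 317, 326 and 344 CPM in Th17n DFMO WT with no overlap (1.47-fold, log2 0.56 ± 0.07 SE, edgeR adjusted p = 1.19e-07). Psma7 rose 1.39-fold in Th17n WT and 1.63-fold in iTreg WT, where 397 to 464 CPM became 610.2 to 742 CPM. Psma6 rose 1.4-fold in Th17n WT and 1.53-fold in Th17n KO. It had 0.25 (log2) in iTreg WT, a call lost without iTreg ctrl WT replicate 1 (0.17) or 2 (0.21) or without iTreg DFMO WT replicate 3 (0.20) or 4 (0.22), and 0.10 in iTreg KO. Psmb5, which carries the chymotrypsin-like site, was at 231, 205, 198 and 213 CPM in Th17n ctrl WT and 317, 335, 311 and 318 CPM in Th17n DFMO WT (1.51-fold, log2 0.60 ± 0.084 SE, edgeR adjusted p = 6.05e-07), and it rose 1.57-, 1.4- and 1.43-fold in Th17n KO, iTreg WT and iTreg KO. Psmb3, a structural beta subunit, had the highest fold of the core in Th17n KO, where 157, 183 and 181 CPM became 337, 313 and 359.5 CPM (1.94-fold), with 1.57 in Th17n WT, 1.43 in iTreg WT and 1.35 in iTreg KO. Psmb1 and Psmb11 passed the test in none of the 4 comparisons.

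Psmb10, the immune replacement for Psmb7 that stays among the members, behaved less evenly. In Th17n WT it was at 27.5, 24.8, 32.1 and 29 CPM without and 36, 29.5, 35.1 and 23.4 CPM with DFMO, overlapping groups (0.13, edgeR adjusted p = 0.522). In Th17n KO it rose from 23.4, 25.5 and 19.2 to 35.6, 32.9 and 39.6 CPM (1.61-fold, log2 0.69 ± 0.196 SE, edgeR adjusted p = 0.00475). It also rose in iTreg WT (0.40, edgeR adjusted p = 0.0226) and iTreg KO (0.55, edgeR adjusted p = 0.0151). The iTreg WT call was lost without iTreg ctrl WT replicate 1 (0.38) or 2 (0.37) or iTreg DFMO WT replicate 3 (0.34) or 4 (0.32), and the iTreg KO call without iTreg ctrl KO replicate 1 (0.51) or 2 (0.47) or iTreg DFMO KO replicate 1 (0.34).

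Of the 3 assembly factors with Psmd symbols, which guide the ATPase ring together and leave the finished particle, Psmd9 rose in all 4 comparisons. It was at 34.4, 32.3, 35.7 and 33.1 CPM in Th17n ctrl WT and 53, 60.8, 50.2 and 51.9 CPM in Th17n DFMO WT (1.59-fold, log2 0.67 ± 0.108 SE, edgeR adjusted p = 5.31e-06), and rose 1.64-, 1.43- and 1.32-fold in Th17n KO, iTreg WT and iTreg KO. The iTreg KO call was lost without iTreg ctrl KO replicate 1 (0.31) or without iTreg DFMO KO replicate 1 (0.32) or 3 (0.37). Psmd5 and Psmd10 passed the test in none of the 4.

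The activators split. Psme3, the nuclear activator, was at 28.1, 22.3, 19.8 and 21 CPM in Th17n ctrl WT and at 57.2, 47.6, 52.3 and 50.1 CPM in Th17n DFMO WT. No library of the groups overlapped, and the fold was 2.27 (log2 1.18 ± 0.155 SE, edgeR adjusted p = 2.23e-07). It rose 2.77-fold in Th17n KO, 2.09-fold in iTreg WT and 2.53-fold in iTreg KO. Psme1 and Psme2, the subunits of the interferon-inducible activator, fell in Th17n cultures. Psme1 was at 280.3, 228, 297 and 242 CPM in Th17n ctrl WT and at 193, 153, 211 and 147 CPM in Th17n DFMO WT, with no overlap (1.49-fold lower, log2 -0.57 ± 0.113 SE, edgeR adjusted p = 9.11e-05), and it was 1.47-fold lower in Th17n KO. Psme2 went from 224 to 282 CPM to 155 to 225 CPM in Th17n WT, where the highest treated library just exceeds the lowest ctrl library (log2 -0.45 ± 0.131 SE, edgeR adjusted p = 0.00483), a call lost without Th17n ctrl WT replicate 1 (-0.33) or Th17n DFMO WT replicate 2 (-0.33), and from 214 to 245 CPM to 137 to 170.5 CPM in Th17n KO (1.52-fold lower, log2 -0.60 ± 0.153 SE).

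In iTreg WT neither subunit passed the test (Psme1 0.02, edgeR adjusted p = 0.868; Psme2 0.17, edgeR adjusted p = 0.283). In iTreg KO Psme2 fell from 408 to 449 CPM to 248 to 364 CPM (-0.43 ± 0.149 SE, edgeR adjusted p = 0.0243), a call lost without iTreg ctrl KO replicate 1 (-0.40) or 3 (-0.41) or iTreg DFMO KO replicate 2 (-0.28). Psme1 had -0.30 there (edgeR adjusted p = 0.0663), which passed with the animal as a replicate block (-0.30). Psme4, the activator known from spermatogenesis, had the lowest levels of the 4: 22.9, 24.8, 25.7 and 18.6 CPM in Th17n ctrl WT against 15.9, 15, 13.8 and 12.4 CPM with DFMO (1.61-fold lower, log2 -0.69 ± 0.154 SE, edgeR adjusted p = 0.000408). It fell 1.75-fold in Th17n KO and 1.64-fold in iTreg WT, and had -0.34 in iTreg KO (edgeR adjusted p = 0.165). On log2(TPM + 1) its Th17n calls were lost (-0.38 in WT, -0.53 in KO). Psme3 went from 3.31% ± 0.489 to 10.5% ± 0.459 of the TPM of Psme1 in Th17n WT (SD, n = 4) and from 2.63% ± 0.438 to 5.67% ± 1.45 in iTreg WT (n = 4).

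**Figure D3:**
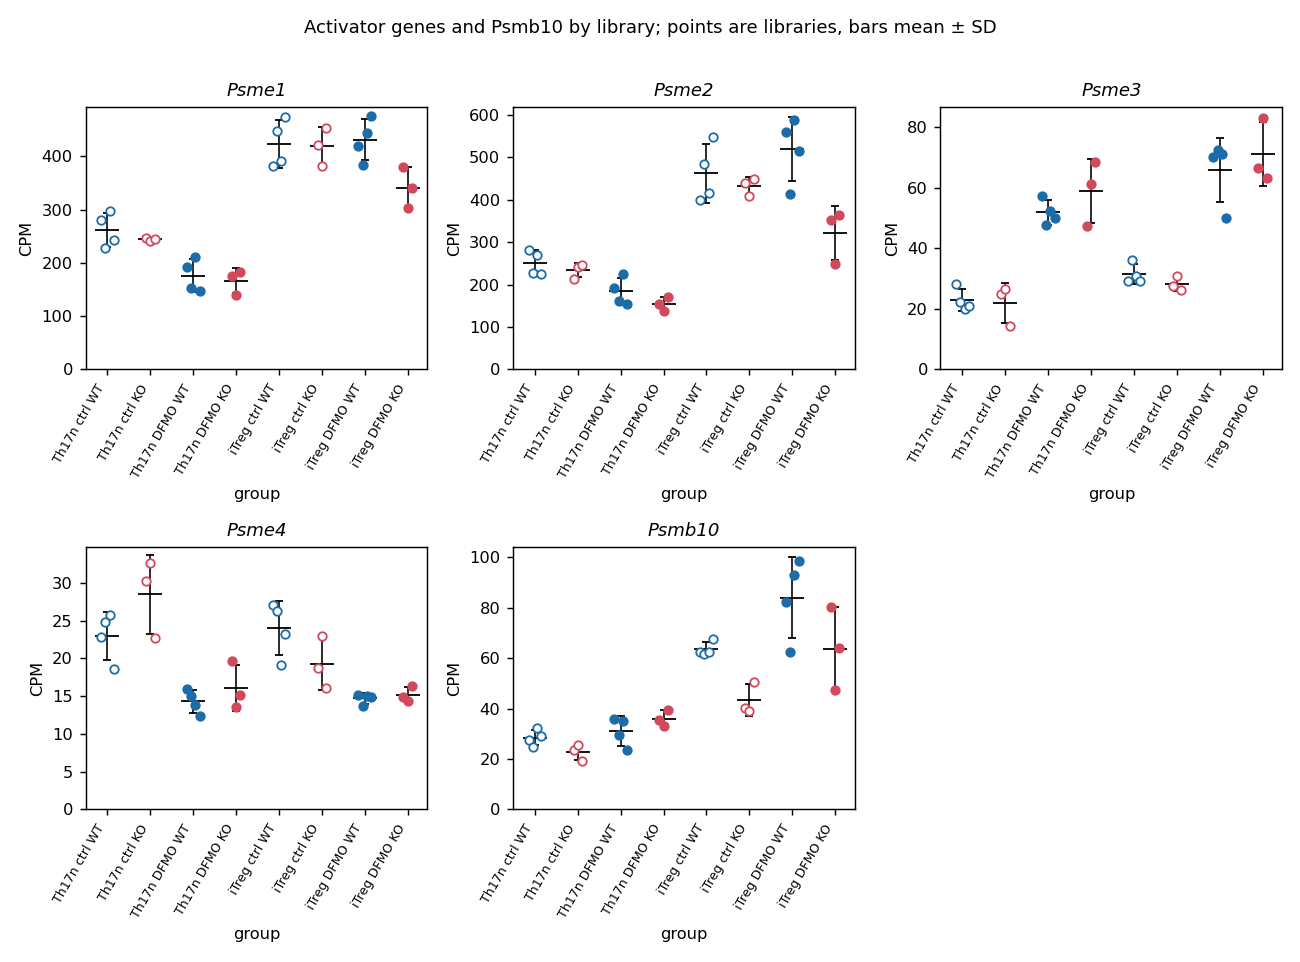
CPM (y axes, each from 0) of the activator genes Psme1 to Psme4 and of Psmb10 by library in the 8 groups (x axis); open points are ctrl and filled points DFMO, blue WT and red KO, and bars are mean ± SD. Psme3 is higher with DFMO in each culture and genotype, Psme1 and Psme2 are lower in Th17n than in iTreg groups, and Psmb10 is lower in Th17n than in iTreg groups.

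Promoter sequences of genes that moved apart or together are shown as reference context. The search covered the 250 bases before the annotated start in RefSeq (GRCm38.p6). Printed is the longest part of them that holds no annotated exon, read 5′ to 3′ on the gene's strand, with motif matches in capitals, so for Psmc1, Psmc4 and Psmc6 the bases next to the RefSeq start are left out. Windows were found for 34 of the 40 members. The 6 short motifs, picked after the expression results were seen and searched on both strands, were TGACNNNGC (core of the antioxidant response element, read by Nfe2l1 and Nfe2l2), CCAAT (read by Nfya, Nfyb and Nfyc), CACGTG (E-box), CGGAAGT (ETS core), the core of the interferon-stimulated response element and TTCNNNGAA (gamma-activated site core). Psmc4, on chr7:28050102-28050342 (minus strand), and Psmc6, on chr14:45329574-45329787 (plus strand), are the ATPase genes that moved in opposite directions. Psmc4 held no match, and Psmc6 held the antioxidant core. Psmc1, on chr12:100109952-100110153 (plus strand), rose with DFMO, and Psmd14, on chr2:61711444-61711693 (plus strand), did not pass the main test in Th17n. Both held a CCAAT box and the ETS core, which Psmc1 held at 2 places, 1 of them in the part left out. Psme3, on chr11:101315963-101316212 (plus strand), held an E-box and a CCAAT box. No matches of different motifs overlapped in the printed stretches.
Psmc4 promoter: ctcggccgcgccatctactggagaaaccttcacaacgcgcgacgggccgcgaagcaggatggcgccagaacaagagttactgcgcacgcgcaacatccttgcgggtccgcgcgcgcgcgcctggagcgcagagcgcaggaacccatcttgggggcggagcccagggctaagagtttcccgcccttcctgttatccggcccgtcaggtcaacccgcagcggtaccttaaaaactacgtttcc
Psmc6 promoter: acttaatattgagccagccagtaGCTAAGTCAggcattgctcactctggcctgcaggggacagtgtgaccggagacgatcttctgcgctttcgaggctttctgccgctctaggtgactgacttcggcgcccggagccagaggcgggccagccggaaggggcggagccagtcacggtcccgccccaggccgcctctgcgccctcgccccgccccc
Psmc1 promoter: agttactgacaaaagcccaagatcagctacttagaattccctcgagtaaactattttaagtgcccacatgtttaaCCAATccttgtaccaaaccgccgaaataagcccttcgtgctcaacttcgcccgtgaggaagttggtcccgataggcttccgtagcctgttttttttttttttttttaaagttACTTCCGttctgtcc
Psmd14 promoter: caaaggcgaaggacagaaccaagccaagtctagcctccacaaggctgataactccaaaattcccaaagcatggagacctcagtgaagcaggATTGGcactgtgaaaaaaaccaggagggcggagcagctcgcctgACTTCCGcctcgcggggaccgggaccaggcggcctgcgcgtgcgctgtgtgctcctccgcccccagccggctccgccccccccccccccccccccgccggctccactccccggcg
Psme3 promoter: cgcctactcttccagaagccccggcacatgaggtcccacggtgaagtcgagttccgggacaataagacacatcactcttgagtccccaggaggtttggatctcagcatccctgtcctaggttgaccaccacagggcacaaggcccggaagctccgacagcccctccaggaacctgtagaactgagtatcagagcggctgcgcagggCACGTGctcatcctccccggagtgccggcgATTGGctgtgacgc
The ETS core was in 9 of the 34 members with a window (26.5%). It was in 12.18% of 8671 tested genes with a window and 4.92% of all 32851 windows. A gene counted if any of its windows matched, so the last share, here and below, is in another unit. The antioxidant core was in 5 (14.7%, beside 13.8% and 10.16%), CCAAT in 13 (38.2%, beside 40.91% and 33.85%), the E-box in 4 (11.8%, beside 9.98% and 6.02%) and the interferon-stimulated core in 3 (8.8%, beside 3.29% and 2.98%), and the gamma-activated core in 0 (beside 7.45% and 7.02%). A match is a description of these letters only.

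Between cultures without drug, members were lower in Th17n than in iTreg. In ctrl WT, 2 members were higher and 25 lower (19.9% and 20% of all genes), with a median of -0.29 beside -0.02 over all genes. In ctrl KO 3 were higher and 17 lower (17.8% and 17.6%). With DFMO the counts were 2 higher and 15 lower in WT (13.1% and 16.3%), and 1 higher and 4 lower in KO (9.89% and 10.8%), with medians of -0.18 and -0.08. Groups did not overlap in CPM for 29, 22, 12 and 12 of the 40 members in that order, beside 36.2%, 47%, 25.5% and 37.1% of all genes. Of the 16 core genes, 14, 11, 12 and 2 were lower in ctrl WT, ctrl KO, DFMO WT and DFMO KO. The DFMO WT count fell to 9 lower without iTreg DFMO WT replicate 3, to 8 without the filter on low counts and to 5 on TPM. These comparisons use the same ctrl and DFMO libraries as the DFMO comparisons above, so the values are not independent of them. The 40 members summed to 6746 ± 318 TPM in Th17n ctrl WT and 8745 ± 239.9 TPM in iTreg ctrl WT, and to 8797 ± 503 and 9238 ± 187 TPM with DFMO (SD, n = 4 each). In CPM the same sums were 7760.3 ± 204 and 9483 ± 445 without drug, and 9941 ± 279.9 and 11846 ± 989 with DFMO. The size of the gap with DFMO thus depends on the scale. Over all genes, the median of Th17n against iTreg in DFMO WT was 0.15 on log2(TPM + 1) and -0.02 on counts.

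Psmb10, Psme1 and Psme2 had the widest gaps between the cultures. Psmb10 was at 24.8 to 32.1 CPM in Th17n ctrl WT against 61.5 to 67.6 CPM in iTreg ctrl WT (2.23-fold lower, log2 -1.16 ± 0.152 SE, edgeR adjusted p = 3.16e-07), and 1.94-, 2.7- and 1.76-fold lower in ctrl KO, DFMO WT and DFMO KO. In TPM it was 30.9% ± 5.97 of Psmb7, the subunit it replaces, in Th17n ctrl WT and 48.1% ± 4.01 in iTreg ctrl WT, and 28.2% ± 9.05 and 63.1% ± 8.61 with DFMO (SD, n = 4). Psme1 was at 228 to 297 CPM in Th17n ctrl WT and 382 to 473 CPM in iTreg ctrl WT (1.62-fold lower, edgeR adjusted p = 8.32e-06). With DFMO the same comparison gave 147 to 211 and 384 to 475 CPM (2.44-fold lower, log2 -1.29 ± 0.113 SE, edgeR adjusted p = 2.37e-10). Psme2 was 1.84-fold lower in ctrl WT and 2.83-fold lower in DFMO WT, where 155 to 225 CPM stood against 414 to 587 CPM. Across the 28 libraries Psme1 and Psme2 had a Spearman rho of 0.97, and Psmb10 had 0.73 with Psme1 and 0.74 with Psme2, values that also hold the differences between the 8 groups.

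Psma6 had the widest gap of the constitutive core: 174 to 213 CPM in Th17n ctrl WT and 249 to 306 CPM in iTreg ctrl WT (1.46-fold lower, log2 -0.55 ± 0.089 SE, edgeR adjusted p = 9.47e-06). It was 1.57-fold lower in ctrl KO, and in DFMO WT its call (-0.31) was lost without Th17n DFMO WT replicate 1 (-0.22) or 4 (-0.25) or iTreg DFMO WT replicate 3 (-0.24) or 4 (-0.25). Psmc6 again ran against its role and was higher in Th17n (0.32 in ctrl WT, edgeR adjusted p = 0.00836, lost without iTreg ctrl WT replicate 1 at 0.25; 0.44 in ctrl KO, edgeR adjusted p = 0.00298, lost without iTreg ctrl KO replicate 3 at 0.30). Psmd4 was the other member higher in ctrl WT (0.29), a call lost without iTreg ctrl WT replicate 1 (0.21) or 2 (0.19). Psmd8 was higher in Th17n with DFMO in both genotypes (0.34 and 0.32, edgeR adjusted p = 0.00139 and 0.0108).

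**Figure D4:**
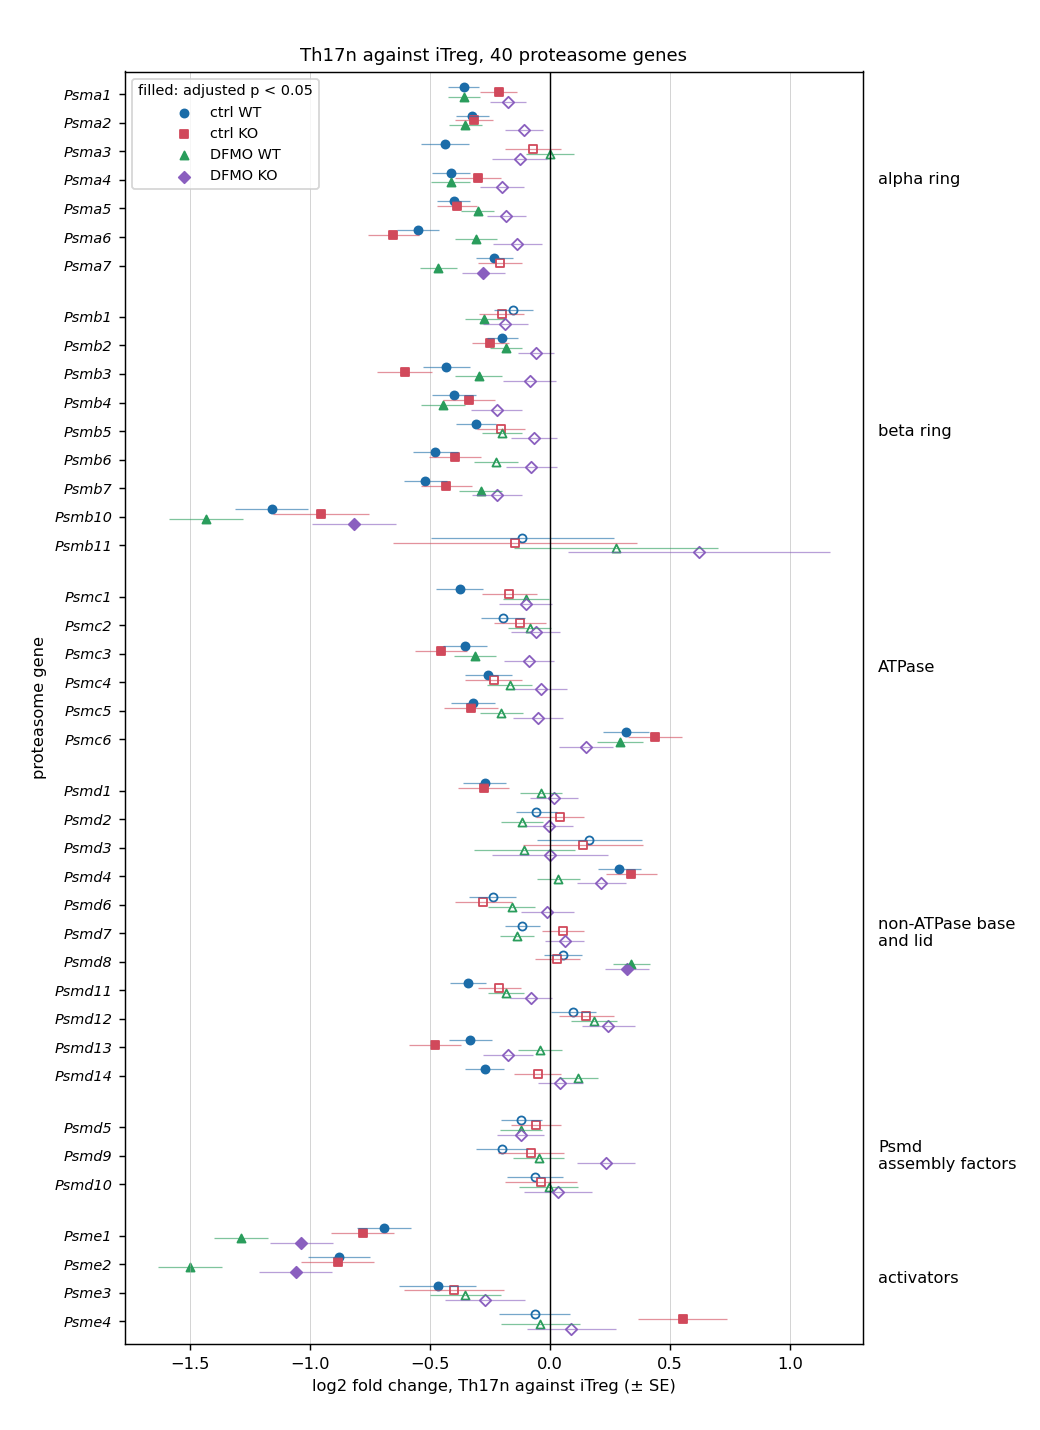
Log2 fold change of Th17n against iTreg (x axis, ± SE) for the 40 proteasome genes (y axis, grouped by role) in ctrl WT, ctrl KO, DFMO WT and DFMO KO; filled symbols passed the edgeR test. Psmb10, Psme1 and Psme2 lie farthest left in all 4, and most core genes lie left of 0.

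Whether DFMO acted differently in the cultures was tested as an interaction. In WT 2 members had a higher and 2 a lower DFMO effect in Th17n than in iTreg (3.39% and 5.34% of all genes): Psme1 (-0.60 ± 0.158 SE, edgeR adjusted p = 0.0142) and Psme2 (-0.62 ± 0.183 SE, edgeR adjusted p = 0.0289) responded lower in Th17n, and Psmd14 (0.39 ± 0.115 SE, edgeR adjusted p = 0.0307) and Psma3 (0.44 ± 0.139 SE, edgeR adjusted p = 0.0459) higher. In KO 1 member did, Psma6 (0.52 ± 0.147 SE, edgeR adjusted p = 0.032, beside 2.2% higher and 3.7% lower). With the animal as a replicate block 2 members did, Psmb3 besides Psma6. Each of these 5 calls was lost in at least 1 fit that left out a library: the range over those fits that lost it was -0.46 to -0.51 for Psme1, -0.48 to -0.58 for Psme2, 0.34 to 0.38 for Psmd14, 0.39 to 0.45 for Psma3 and 0.47 to 0.51 for Psma6.

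KO and WT differed in few members. In Th17n ctrl 1 member was higher and 0 lower in edgeR (2.29% and 0.746% of all genes), with 4 of 40 members and 1591 of 10985 genes at an unadjusted p under 0.05, and 1 higher and 0 lower in DESeq2. The counts were, in iTreg ctrl, 1 higher and 3 lower (3.17% and 2.13%), with 9 of 40 members and 1974 of 10985 genes at an unadjusted p under 0.05, and in iTreg DFMO 0 higher and 1 lower (1.91% and 2.23%) in edgeR, with 14 of 40 members, all of them lower, and 1789 of 10985 genes at an unadjusted p under 0.05. DESeq2 gave 0 members higher and 2 lower there, beside 2.16% and 2.64% of all genes. In Th17n DFMO 0 members passed in edgeR and in DESeq2 (0.646% and 0.373% of all genes in edgeR), and 1 member, beside 1029 of 10985 genes, had an unadjusted p under 0.05, Psmd8 (-0.27, edgeR adjusted p = 0.161). The members' medians were -0.09, 0.01, -0.10 and -0.13 (log2) in Th17n ctrl, Th17n DFMO, iTreg ctrl and iTreg DFMO. Groups did not overlap in CPM for 5, 1, 9 and 5 of the 40 in the same order, beside 16.1%, 10.7%, 15.5% and 11.8% of all genes.

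Psmd3, a scaffold of the lid, was the member higher in KO without drug. It was at 91.9, 96.6, 132 and 143 CPM in Th17n ctrl WT and at 221, 253 and 225 CPM in Th17n ctrl KO. The KO libraries all lay above the WT libraries, 2.01-fold (log2 1.01 ± 0.232 SE, edgeR adjusted p = 0.0113). In iTreg ctrl the WT libraries were at 109, 154, 114 and 30.7 CPM and the KO libraries at 214, 206 and 215 CPM, again with no overlap (2.05-fold, log2 1.04 ± 0.234 SE, edgeR adjusted p = 0.00686). As the labels were read, both cultures came from the same animals, so the iTreg result is not an independent repeat. Of the 252 genes higher in KO in Th17n ctrl, 162 (64.3%) were also higher in KO in iTreg ctrl. The Th17n call was lost without Th17n ctrl KO replicate 2 (0.95) and on TPM (0.99), and the iTreg call with only the groups compared in the fit (1.05). Without iTreg ctrl WT replicate 4, the library at 30.7 CPM, the iTreg difference was 0.77 and still passed.

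With DFMO the Psmd3 levels of the genotypes overlapped: 312, 312, 304 and 265 CPM in Th17n WT and 304, 306 and 295 CPM in Th17n KO, and 334, 271, 366 and 312 CPM in iTreg WT and 301, 298 and 306 CPM in iTreg KO. Psmd3 was therefore 2.57-fold higher with DFMO in Th17n WT (log2 1.36 ± 0.216 SE, edgeR adjusted p = 4.49e-06) and 3.11-fold higher in iTreg WT (1.64 ± 0.219 SE, edgeR adjusted p = 4.51e-07), the widest rise of any member in both. In KO the difference was 0.37 ± 0.245 SE in Th17n (edgeR adjusted p = 0.226) and 0.51 ± 0.246 SE in iTreg (edgeR adjusted p = 0.106), although the DFMO libraries lay above the ctrl libraries in both. Both KO differences passed without the filter on low counts (0.46 in Th17n, 0.54 in iTreg) and with only the groups compared (0.42 and 0.49).

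The test of the difference between the DFMO effects of KO and WT did not pass: -0.99 ± 0.325 SE in Th17n (edgeR adjusted p = 0.307) and -1.13 ± 0.328 SE in iTreg (edgeR adjusted p = 0.159). It passed without the filter on low counts (-0.97 and -1.11), in Th17n with only the groups compared (-0.999), and in iTreg without iTreg ctrl WT replicate 2 (-1.40) or 4 (-0.86). Over all members this interaction gave 0 higher and 0 lower in edgeR in Th17n (0.0364% and 0.291% of all genes, 2 of 40 members and 753 of 10985 genes at an unadjusted p under 0.05) and in iTreg (0.0273% and 0.218%, 5 of 40 members and 1080 of 10985 genes), and DESeq2 called 0 in Th17n and 1 in iTreg, Psma3. The ctrl WT libraries enter the genotype comparison, the DFMO comparison and this interaction alike. Psmd3 has few whole counts (3.57% of its 28 values) and a GC content of 55.4%, and GC content had a Spearman rho of 0.18 and 0.25 with the KO against WT change over 10982 genes in Th17n ctrl and iTreg ctrl. The part of either in the result was not tested.

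**Figure D5:**
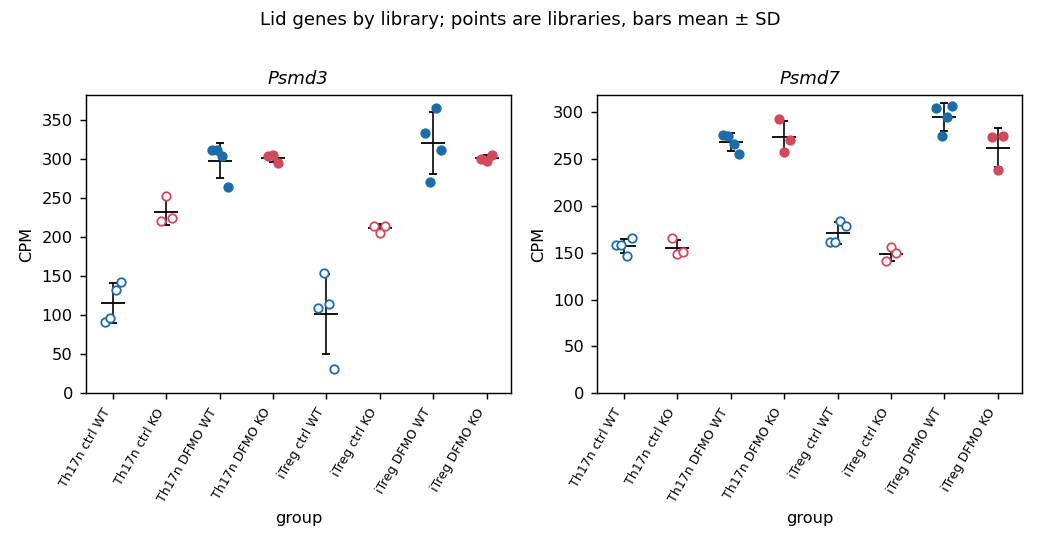
CPM (y axes, from 0) of the lid genes Psmd3 and Psmd7 in each library of the 8 groups (x axis); open points are ctrl and filled points DFMO, blue WT and red KO, and bars are mean ± SD. For Psmd3 the ctrl WT libraries (30.7 to 154 CPM) lie below the ctrl KO libraries (206 to 253 CPM), while for Psmd7 the genotypes overlap in Th17n ctrl, and in iTreg ctrl the KO libraries (141 to 156 CPM) lie below the WT libraries (161 to 184 CPM).

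The 3 members lower in iTreg ctrl KO were Psma3, Psmd14 and Psma1. Psma3 was at 488, 488, 507 and 491 CPM in WT and at 298, 429 and 303 CPM in KO (log2 -0.52 ± 0.108 SE, edgeR adjusted p = 0.00317). The KO libraries were all lower, with replicate 2 nearest to WT. Psmd14 (-0.30 ± 0.09 SE, edgeR adjusted p = 0.0464) and Psma1 (-0.23 ± 0.071 SE, edgeR adjusted p = 0.0496) were close to the threshold. Psmd14 lost its call without any 1 of the 4 iTreg ctrl WT libraries or without KO replicate 1 or 3 (-0.24 to -0.30), and Psma1 without WT replicate 1, 3 or 4 or any KO replicate (-0.20 to -0.24). In iTreg DFMO, Psme2 was the member lower in KO: 559.9, 414, 587 and 515 CPM in WT and 353, 248 and 364 CPM in KO, with no overlap (1.62-fold lower, log2 -0.69 ± 0.141 SE, edgeR adjusted p = 0.00278). Without iTreg DFMO WT replicate 2, 3 members were lower there, Psmb10 (-0.51) and Psmd8 (-0.32) besides Psme2. Of 9 MHC class I processing genes, 7 were lower in the same comparison, beside 2.23% of all genes. Among them were the peptide transporter gene Tap1 (-1.04 ± 0.197 SE, edgeR adjusted p = 0.00127) and Tapbp, which loads peptides (-0.70 ± 0.124 SE). The interferon response factor Irf1 was at -2.17 ± 0.29 SE and Nlrc5, a regulator of MHC class I genes, at -1.02 ± 0.255 SE. B cell markers summed to 6.19 to 11.9 CPM in WT and 13.5 to 21.1 CPM in KO, and their part was not tested.

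Genes around the proteasome are given from lists. With DFMO, 23.4%, 21.1%, 23.1% and 19% of all tested genes rose in Th17n WT, Th17n KO, iTreg WT and iTreg KO. In the same order 28.4%, 24.6%, 24.3% and 19.1% fell. Some list counts lie near these shares, such as 4 of 14 ubiquitin genes higher in Th17n WT. Of 12 assembly and regulation genes, 7 rose and 0 fell with DFMO in Th17n WT, 6 and 0 in Th17n KO, 3 and 0 in iTreg WT, and 4 and 0 in iTreg KO. The core chaperone gene Psmg3 rose by 0.82 ± 0.109 SE (edgeR adjusted p = 2.65e-07) and Adrm1, a ubiquitin receptor of the base, by 0.57 ± 0.083 SE in Th17n WT. Pomp, which matures the core, had 0.71 ± 0.079 SE in iTreg WT. Of 12 genes that act on transcription of subunit or immune genes, 2 rose and 5 fell in Th17n WT, 1 and 5 in Th17n KO, 3 and 3 in iTreg WT, and 2 and 4 in iTreg KO. The CCAAT-binding subunits moved apart in Th17n WT, Nfyb by -0.85 ± 0.075 SE and Nfyc by 0.79 ± 0.115 SE. Stat3, the IL-6 signal transducer, was at -0.86 ± 0.079 SE and Ngly1, the enzyme that activates Nfe2l1 protein, at -0.56 ± 0.096 SE. Nfe2l1, the factor known to raise subunit genes when the proteasome is inhibited, was at 0.28 in Th17n WT and -0.53 in iTreg WT. Of 14 ubiquitin supply and shuttling genes, 4, 5, 8 and 6 rose and 0, 0, 1 and 0 fell in Th17n WT, Th17n KO, iTreg WT and iTreg KO, led in Th17n WT by the shuttle Ubqln1 (1.59 ± 0.206 SE) with Vcp, the segregase that extracts tagged proteins, at 0.41 ± 0.074 SE.

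Of 4 tested genes of the ornithine decarboxylase loop, 2 rose and 2 fell in both Th17n comparisons, and 1 rose and 2 fell in both iTreg comparisons. In Th17n WT the antizymes Oaz2 and Oaz1 were at -1.82 ± 0.158 SE and -0.76 ± 0.092 SE, the antizyme inhibitor Azin1 at 1.14 ± 0.165 SE and Odc1, the drug's target, at 0.65 ± 0.137 SE (edgeR adjusted p = 0.000217 for Odc1). Of the 9 MHC class I genes, 2, 2, 5 and 3 rose and 0, 2, 0 and 1 fell with DFMO in the same order. The shares of all genes given with the lists above apply to these counts and to those of the ornithine decarboxylase genes. Between cultures 8, 4, 8 and 5 of the 9 were lower in Th17n in ctrl WT, ctrl KO, DFMO WT and DFMO KO. In each, 0 were higher. Of all genes, 20%, 17.6%, 16.3% and 10.8% were lower in that order. Psmb10, Psme1 and Psme2 were lower in Th17n too. Tapbp was at -0.88 ± 0.115 SE in ctrl WT and -1.68 ± 0.117 SE in DFMO WT, and Irf1 at -1.07 and -2.16.

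Across the 28 libraries, as a description, the median pairwise Spearman rho was 0.90 among ATPase genes, with single pairs from -0.73 to 0.96. It was 0.81 in the alpha ring, 0.78 in the beta ring without Psmb11, 0.47 among base and lid genes and 0.11 among activators. These values also hold the differences between the 8 groups, and no rho over all genes was set beside them. With group means removed the same medians were 0.25, 0.27, 0.55, 0.14 and 0.11. Psmc4 had 0.95 with Psmc5, -0.66 with Psmc6 and 0.81 with Psme3. Psmc6 (median rho -0.60 with the other members) and Psme4 (-0.54) were least like the rest.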

How the data were processed

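RNA of 28 libraries was measured, 4 from each of 7 mice as the labels were read. The authors deposited estimated counts and TPM per gene, for which the submitters' processing notes list kallisto and GRCm38, without a version. Estimated counts as deposited were rounded for testing (67.2% lay within 0.001 of a whole number). The members and gene lists were chosen with earlier results of these data known. Psmb8 and Psmb9 were left out by the rule for the members.

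Groups came from the labels. One edgeR 4.0.16 quasi-likelihood model (R 4.3.3) with 8 group means, TMM scaling and edgeR's filter on low counts, which dropped 9906 genes, gave 16 comparisons over 10985 genes, each with Benjamini-Hochberg adjustment and calls at an adjusted p under 0.05. CPM are TMM-scaled. The model had 20 residual and 9.24 prior degrees of freedom. Library totals of 2226914 to 4759290 set the precision, so genes of a few CPM are the least precise. Alternatives were another scaling, no filter, the animal as a replicate block, a fit of only the groups compared, limma 3.58.1 on log2(TPM + 1), DESeq2 1.42.0 and leaving out each library, and, added after seeing the data, TMM-scaled TPM. Code was tested on simulated data.

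Libraries whose labels share a genotype and number were read as 1 animal and so as paired. Their deviations from the group means had a median correlation of 0.08 (42 pairs, -0.03 to 0.31). Between animals of the genotype it was -0.02 (108 pairs, -0.23 to 0.09). No 2 libraries of a group were alike within sampling noise (smallest chi-square per degree of freedom 2.82 over 36 pairs). Named members were, for each role, the 2 called with the largest DFMO change in Th17n WT at 10 CPM or more, called members moving against their role there, up to 4 of the smallest adjusted p in each other comparison, and always Psmb5, Psmb10, Psmd4, Psmd14 and Psme1 to Psme4. Gene symbols and GC content came from GENCODE.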

Additional observations from a re-analysis of the deposited data

Results flagged for a closer look

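Of the 160 combinations of member and WT group, 10 had 1 library set apart from the other 3 by more than Dixon's critical value, and chance alone sets apart about 1 in 20. In Th17n ctrl WT, replicate 2 was low for Psma2 (380.2 CPM, the others 424 to 431) and high for Psmd4 (268 CPM, the others 246 to 248), and replicate 1 was high for Psmb6 (292 CPM, the others 263 to 265). In Th17n DFMO WT, replicate 4 was low for Psmd3 (265 CPM, the others 304 to 312) and replicate 3 high for Psmd5 (101 CPM, the others 86.1 to 88.7). In iTreg ctrl WT, replicate 2 was low for Psma1 (341 CPM, the others 383 to 386), replicate 3 high for Psma3 (507 CPM, the others 488 to 491) and replicate 4 high for Psmd9 (46 CPM, the others 36.1 to 37.4). In iTreg DFMO WT, replicate 4 was low for Psme3 (50.1 CPM, the others 70.1 to 72.4) and replicate 2 low for Psme4 (13.7 CPM, the others 14.9 to 15.1). KO groups hold 3 libraries and were not examined in this way.

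The difference in DFMO effect between Th17n and iTreg passed the interaction test in edgeR for 5 members. In WT 2 of 40 were higher and 2 lower, beside 3.39% and 5.34% of all genes. In KO 1 was higher and 0 lower, beside 2.2% and 3.7%. These counts lie near the shares over all genes. Each of the 5 calls was lost in at least 1 fit that left out a library. In WT the differences were 0.44 for Psma3 (adjusted p = 0.0459), 0.39 for Psmd14 (adjusted p = 0.0307), -0.60 for Psme1 (adjusted p = 0.0142) and -0.62 for Psme2 (adjusted p = 0.0289), on the log2 scale by edgeR. In KO it was 0.52 for Psma6 (edgeR adjusted p = 0.032).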

How the results depend on the processing

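Of the members called with DFMO, 27 of 32 in Th17n WT, 27 of 32 in Th17n KO, 15 of 28 in iTreg WT and 15 of 22 in iTreg KO kept their call and direction under every alternative run, as did 19 of 27, 11 of 20, 6 of 17 and 3 of 5 between Th17n and iTreg in ctrl WT, ctrl KO, DFMO WT and DFMO KO. The counts that moved by over 1.5 times are given here, and except where the setting's construction shows it (fewer libraries or other genes tested) the cause was not tested. On log2(TPM + 1) with limma, lower members with DFMO were 2 in Th17n WT, 2 in Th17n KO and 4 in iTreg KO. In iTreg WT 15 were then higher and 7 lower, and Psmb2 (-0.041), Psmd11 (-0.109) and Psmd13 (-0.042) turned sign, as did Psmb2 (0.047) for Th17n against iTreg in DFMO WT. KO against WT in Th17n ctrl gave 0 higher and 1 lower. Th17n against iTreg gave 1 higher in ctrl WT, 5 higher and 5 lower in DFMO WT, and 3 higher and 2 lower in DFMO KO. DFMO by culture, the difference between the DFMO effects in Th17n and iTreg, gave 15 higher and 0 lower in WT (8.51% and 2.35% of all genes, whose median was 0.19) and 8 higher in KO (3.81% of all genes, median 0.10). On TMM-scaled TPM, an alternative added after seeing the data, lower members with DFMO were 2 in Th17n WT, 1 in iTreg WT and 0 in iTreg KO, KO against WT in Th17n ctrl gave 0 higher, Th17n against iTreg in DFMO KO 2 higher, and DFMO by culture 1 lower in WT and 2 higher in KO.

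The animal as a replicate block follows the pairing read from the labels. With it, lower members with DFMO in iTreg KO were 2 and higher members for DFMO by culture in KO were 2. No other count of members moved by over 1.5 times. No paired analysis was possible for KO against WT because no animal is in both genotypes. With only the groups compared, lower members with DFMO in iTreg KO were 2, KO against WT gave 1 lower in Th17n ctrl and 0 higher in iTreg ctrl, Th17n against iTreg in DFMO KO 3 higher, DFMO by genotype in Th17n 1 lower, and DFMO by culture 1 higher and 1 lower in WT and 2 higher in KO. Without the filter, Th17n against iTreg in DFMO WT gave 8 lower, DFMO by genotype 1 lower in Th17n and 1 higher and 2 lower in iTreg, and DFMO by culture 2 higher in KO. With RLE scaling, KO against WT in iTreg ctrl gave 1 lower and DFMO by culture 2 higher in KO. DESeq2 gave 5 lower for KO against WT in iTreg ctrl, 2 lower in iTreg DFMO, 1 higher for DFMO by genotype in iTreg and 2 higher for DFMO by culture in KO.

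Leaving out 1 library at a time, lower members with DFMO ranged from 2 (without Th17n DFMO WT replicate 2) to 4 in Th17n WT and from 0 to 2 in iTreg KO. KO against WT ranged from 0 to 1 higher in Th17n ctrl, from 1 to 3 lower in iTreg ctrl and from 1 to 3 lower in iTreg DFMO. Th17n against iTreg ranged from 0 to 2 higher in ctrl WT, 1 to 3 higher in ctrl KO, 1 to 3 higher and 9 to 18 lower in DFMO WT, and 1 to 2 higher in DFMO KO. DFMO by genotype in iTreg ranged from 0 to 1 in each direction, and DFMO by culture from 0 to 4 higher and 0 to 2 lower in WT and 0 to 3 higher in KO. Depth limits the low members most: Psmb11, at a mean of 1.99 CPM, had a log2 difference of -1.23 with DFMO in iTreg KO that did not pass the test.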
